A study of Mus musculus with 23 samples.

Results

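Duplicate arrays of wild-type embryonic stem (ES) cells that had received only control plasmids differed from each other in many transcripts. The array numbered 2 of each pair had higher intensities of smooth-muscle alpha-actin, simple epithelial keratins and some annexins than the array numbered 1. The 4 arrays concerned were the wild-type vector and wild-type SRFdM-VP16 arrays numbered 2 and 1, out of 23 arrays in the series. They were chosen by those intensities, which were already known to differ by number, so the difference between them is described here without a test. Tests were made only on the other 19 arrays. The number 2 arrays carried transcripts that SRF-VP16 raised in the other lines, and they are called controls here on their labels alone: whether each array holds the sample its label names was not tested.

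ES cells are pluripotent cells of the early embryo that grow indefinitely in culture and can form every tissue. SRF (serum response factor) is a transcription factor that binds the CArG box and drives genes of the actin cytoskeleton and smooth muscle, such as the actins, transgelin and calponin, as well as immediate-early genes such as Egr1 and Fos. Fusion to the strong viral activation domain VP16 makes SRF constitutively active. Keratin 8 and keratin 18 form the intermediate filaments of simple epithelia, including trophectoderm and endoderm, and annexins bind membranes in a calcium-dependent way; both are usually scarce in undifferentiated ES cells.

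Per the labels, the lines were E14 wild type, E99 (+/-), E81 (-/-) and E100 (-/-); the gene behind these symbols is not named there and was not analysed here. Each line was transfected with SRF-VP16, with SRFdM-VP16, which the labels call a control, or with vector, and total RNA was taken after 72 hours. E100 with vector is represented here by its number 2 array alone. The labels state duplicates but not whether they were separate cultures, so a p-value here reflects the spread among these arrays alone, which may be technical, and each line may be 1 clone. All groups share the transfection, and no untransfected sample was used here. In bulk RNA, fewer cells of a type and less RNA per cell cannot be told apart.

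The 4 arrays carried clear ES cell signal. Pou5f1, the core pluripotency factor, had intensities of 23239 and 19553 in the vector and SRFdM-VP16 arrays numbered 2, against 24194 and 27498 in those numbered 1. Array medians were 177 and 130 for number 2, against 170.7 and 90 for number 1. The share of values at or below 0 was 25.25% and 25.03% for number 2, against 26.51% and 37.93% for number 1, so the SRFdM-VP16 array numbered 1 had more undetected probe sets while the vector pair was alike. The vector array numbered 1 was the only one of the 23 whose values were not whole numbers. The log2 ratio of 5′ to 3′ Actb probe sets, a sign of RNA integrity, was -0.117 and -0.929 for number 2, against -0.371 and 0.079 for number 1, and that of Gapdh was 0.23 and -0.223, against 0.383 and 0.316. The part of these differences in the results was not tested. Across 9643 probe sets the number 2 arrays correlated with each other at 0.949 and the number 1 arrays at 0.952 (Pearson, log2 intensity), while the vector array numbered 2 correlated with the vector array numbered 1 at 0.936 and the SRFdM-VP16 pair at 0.923. These values are descriptive, and all of them share the same probes.

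A probe set was counted as parted if number 2 and number 1 differed at least 2-fold in the same direction with both plasmids and the arrays of the numbers did not overlap. Any intensity under a floor of 58 was raised to it, so where both dim arrays lie under it a fold is a lower bound, written "at least". Of the 9643 probe sets kept, 405 (4.2%) were higher and 178 (1.85%) lower in number 2, while 111 (1.15%) passed 2-fold in opposite directions with the 2 plasmids. Because the arrays were chosen for this contrast, nothing is read from these shares. The same rule gave 241 (2.5%) higher and 188 (1.95%) lower in the duplicates of the E99 controls, and 679 (7.04%) and 89 (0.923%) in those of the E81 controls, so parted duplicates were not confined to wild type. The split depended on scaling: with quantile normalization 370 probe sets were higher and 241 lower, and with each array divided by its median 275 were higher and 307 lower. At the threshold itself, Arl14ep lay just inside, with a smaller log2 difference of 1.00, and Sun2 just outside, with 0.99.

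**Figure D1:**
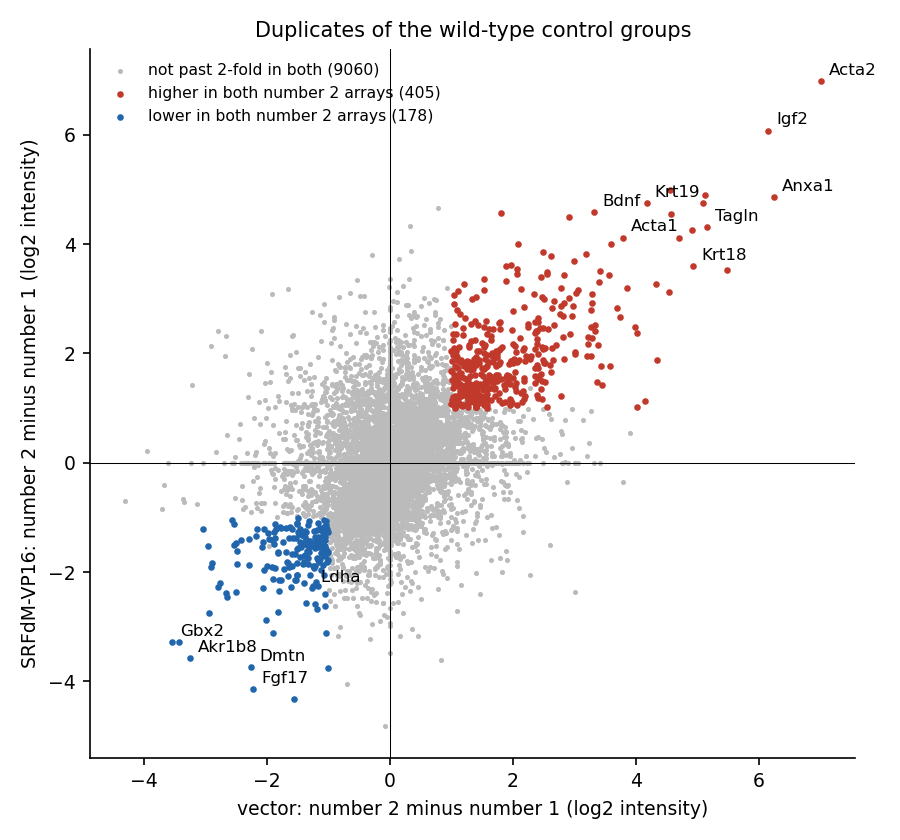
Number 2 minus number 1 in wild-type ES cells with vector (horizontal axis) and with SRFdM-VP16 (vertical axis), both in log2 intensity, for 9643 probe sets. The 405 probe sets higher in both number 2 arrays lie at upper right, led by Acta2 near 7 on both axes, and the 178 lower ones at lower left, led by Gbx2.

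A smooth-muscle actin had the largest difference. Acta2, smooth-muscle alpha-actin, read 7463 and 7302 in the vector and SRFdM-VP16 arrays numbered 2, against -242.3 and -52 in those numbered 1, at least 127-fold apart. Tagln (transgelin, an actin-bundling protein of smooth muscle) read 9417 and 11738, against 263.5 and 591. Gsn (gelsolin, which severs actin filaments) read 1975 and 1567, against 20.9 and -36. The number 2 arrays did not overlap the number 1 arrays for any of the 3 genes; Acta2 and Gsn were under the floor on both number 1 arrays, while Tagln was above it on both. Csrp1, a LIM-domain protein of smooth muscle, was parted 8.66-fold, with 2294 and 2258 in number 2 against 274 and 252 in number 1. Acta1, skeletal alpha-actin, read 799 and 1007, against 15.4 and 49. Of 32 measured genes of this list, 11 were higher and 0 lower in number 2, with a median log2 difference of 0.80, against 327 (4.81%) higher and 120 (1.77%) lower among all 6796 named genes, whose median was 0. The remaining higher members were Cnn1, Cnn2, Myl9, Tpm4, Fhl1 and Lpp. Several actin genes were not parted: Actg1, cytoplasmic gamma-actin, read 30085 and 28474 in number 2 against 25721 and 29243 in number 1, and Actg2, which is known as a smooth-muscle actin, read 8504 and 9414 against 8023.3 and 7393. The Actg2 probe set is of a type (suffix f) that may match related genes, so its signal may not be Actg2 alone. Vinculin (Vcl) read 2969 and 1495, against 1168 and 1178.

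Promoter windows of parted genes are shown because the CArG box is the site that SRF binds. Only windows that hold a box are printed. Only exact matches to the form CCWWWWWWGG, where W is A or T, were counted as a box. The windows of Acta2, Gsn, Csrp1, Krt18, Krt8 and Anxa1 held no exact match, nor did the window of another Ldha start. Sequences close to that form were not counted, and the Acta2 window holds ccctatatgg and ccttgtttgg, which resemble it. RefSeq windows (build GRCm38.p6, 250 bases before to 50 after the annotated start, printed 5′ to 3′ on the gene's strand) are given for 3 genes higher in number 2 and for Ldha, which was lower, with the CArG box in capitals.
Acta1, chr8:123894726-123895025, minus strand: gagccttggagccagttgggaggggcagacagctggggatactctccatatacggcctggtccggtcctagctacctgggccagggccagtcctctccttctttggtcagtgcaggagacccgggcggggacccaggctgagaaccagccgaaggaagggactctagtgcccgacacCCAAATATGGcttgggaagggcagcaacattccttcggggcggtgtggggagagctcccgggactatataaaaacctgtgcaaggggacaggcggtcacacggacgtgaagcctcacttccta
Myl9, chr2:156775214-156775513, plus strand: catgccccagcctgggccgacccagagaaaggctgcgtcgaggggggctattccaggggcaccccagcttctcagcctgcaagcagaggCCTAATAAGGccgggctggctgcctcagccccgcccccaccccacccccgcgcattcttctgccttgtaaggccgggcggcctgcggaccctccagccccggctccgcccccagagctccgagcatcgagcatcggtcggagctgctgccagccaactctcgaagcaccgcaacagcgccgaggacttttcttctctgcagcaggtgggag
Igf2, chr7:142661222-142661521, minus strand: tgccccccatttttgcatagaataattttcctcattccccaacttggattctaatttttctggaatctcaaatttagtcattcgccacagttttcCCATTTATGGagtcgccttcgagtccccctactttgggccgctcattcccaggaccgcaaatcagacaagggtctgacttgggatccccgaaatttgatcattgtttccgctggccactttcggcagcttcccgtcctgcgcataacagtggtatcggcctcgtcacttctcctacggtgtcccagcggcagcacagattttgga
Ldha, chr7:46845554-46845853, plus strand: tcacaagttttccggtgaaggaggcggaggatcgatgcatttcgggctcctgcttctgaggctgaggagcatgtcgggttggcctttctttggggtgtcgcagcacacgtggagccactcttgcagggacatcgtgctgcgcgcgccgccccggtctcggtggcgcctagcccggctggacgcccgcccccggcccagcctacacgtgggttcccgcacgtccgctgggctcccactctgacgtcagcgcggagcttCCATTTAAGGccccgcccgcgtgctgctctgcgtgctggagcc
The box began 73 bases before the start in Acta1, 161 before it in Myl9 and 155 before it in this one of the Igf2 starts, and 8 bases into the transcript in Ldha. On both strands of these windows, 8 of 264 genes higher in number 2 (3.03%) held a CArG box, as did 2 of 93 lower ones (2.15%) and 1.81% of all genes in the table. Among 156 genes that rose with SRF-VP16 in the -/- lines, 11 (7.05%) held one. A match is only a description of these letters, and boxes outside the window were not searched.

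All 5 measured simple epithelial keratins were higher in number 2, against 4.81% of all named genes. Krt18 read 8843 and 8168 in number 2, against 291.1 and 674 in number 1, a 19.2-fold gap. Its filament partner Krt8 read 5225 and 5576, against 981 and 939. Krt19 read 1047 and 1555, against -137.5 and -289, at least 4.46 log2 units apart. Krt7 and Krt20 were dimmer, with Krt7 at 177 and 163 against -113.9 and -139. The summed intensity of the 5 keratins was 15517 and 15619 in number 2, against 1325 and 1641 in number 1; the 11 control arrays of the other lines gave 498 to 1570. The number 1 arrays therefore lay in or near the range of the other lines' controls, and the number 2 arrays far above it.

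In the list of annexins and S100 calcium-binding proteins 6 of 17 were higher and 0 lower, against 4.81% and 1.77% of all named genes. The 6 were Anxa1, Anxa2, Anxa3, Anxa5, S100a1 and S100a13. Anxa4, Anxa6, Anxa7, Anxa8 and Anxa10 were not among them. The list's median log2 difference was 0.30 (0.94 with vector and 0.03 with SRFdM-VP16). Anxa1, an anti-inflammatory phospholipid-binding protein, read 4404 and 4341 in number 2, against 20.7 and 149 in number 1, 47.0-fold apart. Its second probe set was higher by 2.67 log2 units; the main Anxa1 probe set is of a type (suffix f) that may match related genes. Anxa2 read 8627 and 6787, against 532.3 and 1302, and Anxa3 read 3620 and 2290, against 156.2 and 261. The list was not uniform, since S100a10, the partner of annexin A2, read 6784 and 6325 against 5123.4 and 6462. S100a13 was among the 6, but its other probe sets were not parted. With vector and SRFdM-VP16 they differed by 0.78 and 4.67, and by -0.19 and 0.58, in log2 units.

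**Figure D2:**
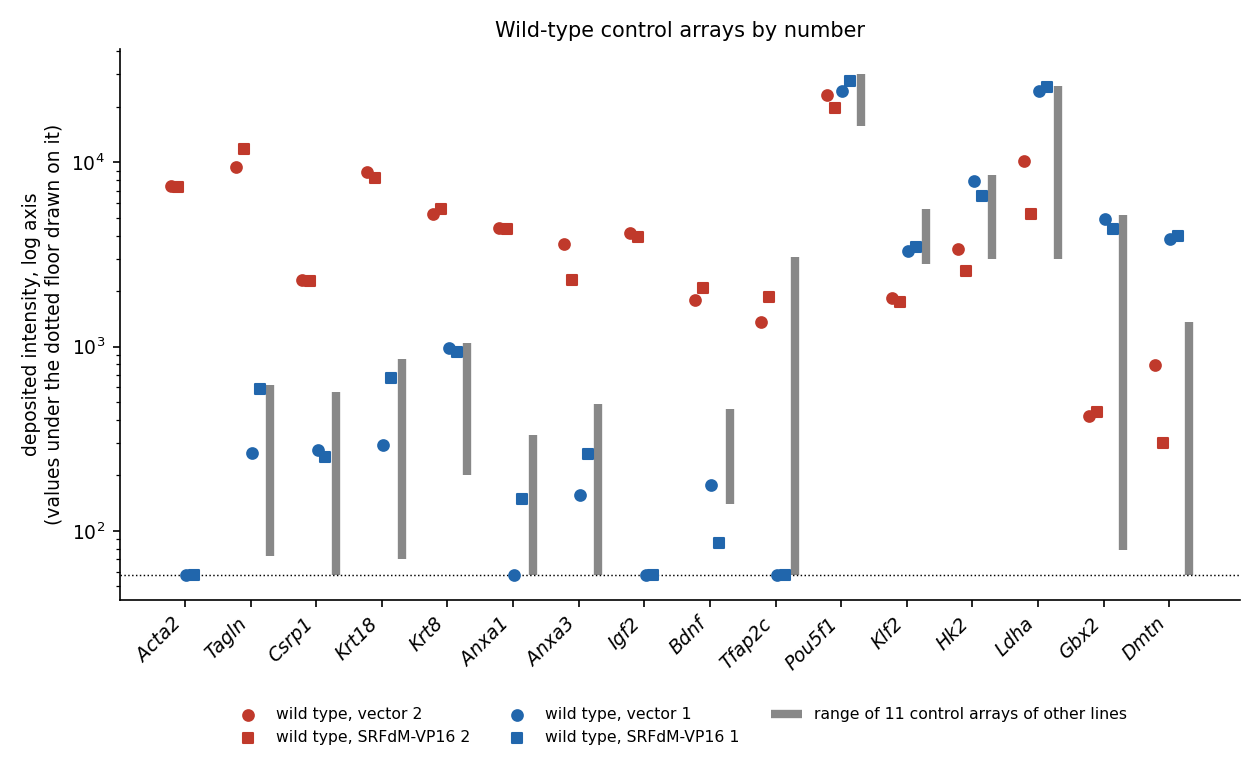
Deposited intensities (log axis) of 16 genes in the wild-type control arrays, with number 2 in red left of number 1 in blue, circles for vector, squares for SRFdM-VP16 and grey bars for the range of 11 control arrays of the other lines. Acta2, Tagln, keratins and annexins in number 2 sit above the grey bars, whereas Tfap2c lies inside its bar. Pou5f1 is slightly lower in number 2 without passing 2-fold, and Ldha and Gbx2 are low in number 2.

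Growth factor and imprinted genes were among the largest differences. Igf2, the fetal insulin-like growth factor, read 4127 and 3918 in number 2, against -622.1 and -531 in number 1, at least 69.3-fold apart; its other probe set was at the floor on all 4 arrays and showed no difference. In the insulin-like growth factor list 4 of 11 genes were higher (Igf2, Igf1r, Igf2r and Igfbp3) and 0 lower. In the imprinted list 5 of 20 were higher and 1 lower. The shares of all named genes were 4.81% higher and 1.77% lower. Both lists also count Nckap1, which belongs to neither group and was not parted. Peg3 read 4326 and 3032, against 1241.1 and 127, and Sgce was at least 21.2-fold higher. The lower imprinted gene was Mest, at 1455 and 689 against 3031.2 and 3625. Bdnf, a neurotrophin, read 1780 and 2074, against 178.5 and 86.

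Of 13 p53 targets and cell cycle inhibitors, 6 were higher and 0 lower, and 3 were higher after division by the array median. Gadd45a, a DNA-damage response gene, read 6412 and 3832 in number 2, against 2145.5 and 1697 in number 1, and Cdkn2a, the Ink4a/Arf locus, read 699 and 498 against 85.4 and -43. Among 23 immediate-early genes 5 were higher and 0 lower, and 3 were higher after division by the array median. Ccn2 (connective tissue growth factor) read 5259 and 3364, against 117.2 and 291, and Atf3 read 1990 and 1294, against 253.4 and 177. This Atf3 probe set is of a type (suffix f) that may match related genes. A second Atf3 probe set was not parted, with log2 differences of 0 with vector and 0.45 with SRFdM-VP16. Ccn1, Klf6 and Jun were the other higher members. Egr1 and Fos, the members of that list named above as driven by SRF, were not parted. Egr1 read 449 and 624, against 282.9 and 303. Fos was dim, at 153 and 75 against 112.4 and 7, so its values say little. The parted Ccn1 and Ccn2 rose with SRF-VP16 in the -/- lines, although the Ccn2 call was lost under some alternatives. Members of that list that respond to SRF-VP16 were therefore found among the parted genes as well as outside them. None of the 28 cell cycle genes was parted, against 4.81% higher and 1.77% lower among all named genes. The median log2 difference of the cell cycle genes was -0.54, but quantile normalization put 2 of them past 2-fold lower and division by the array median 5.

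In the trophoblast list 4 of 11 were higher, led by Tfap2c (AP-2 gamma) at 1361 and 1855 in number 2, against -81.8 and -208 in number 1, with Esx1, Krt7 and Gata3. In the primitive and parietal endoderm list 3 of 23 were higher: Col4a1, Lrp2 and Sparc, which read 5182 and 3893 against 920.1 and 1051. Gata4, an endoderm regulator, read 516 and 540 against 347.3 and 182, and Gata6 stayed between -96 and 48 on all 4 arrays. In the mesoderm list 2 of 19 were higher (Pecam1 and Twist1), and in the neurectoderm list 4 of 13 were higher (Nes, Neurod1, Tubb3 and Stmn2) and 2 lower (Sox1 and Gbx2). None of 19 cardiac and striated muscle genes was parted. Among all named genes 4.81% were higher and 1.77% lower. The adhesion list had 6 of 27 higher, including Cldn4 at 6690 and 6091 against 1714.5 and 1680, and Dsp (desmoplakin) at 2387 and 1572 against 413.8 and 367. Basement membrane genes had 3 of 18 higher, among them Serpinh1, a collagen chaperone, at 5040 and 3431 against 251.3 and 355.

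Markers of fibroblasts or feeder cells, which can be present in ES cell cultures, were 1 of 22 higher (Twist1) and 0 lower. This is near the 4.81% higher and 1.77% lower among all named genes. Their summed intensity was 18886 and 13310 in number 2, against 11254 and 8999 in number 1, and the 11 control arrays of the other lines gave 11290 to 20363. Col1a2, a defining fibroblast collagen, was below 0 on all 4 arrays, and Vim read 331 and 218 against 275.5 and 222. In the remaining lists 1 of 8 tissue factor and plasminogen activator genes was higher (F3) and 1 lower (Tfpi), 2 of 15 interferon and antigen processing genes were higher and 1 lower, 1 of 14 lysosome genes was higher, and 1 of 10 housekeeping genes was higher (B2m). Of 16 metallothionein and oxidative stress genes, Gpx4 was higher, and Nqo1 and Cat were lower.

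No pluripotency gene was counted as parted, which is near the share of all named genes for a list of this size. Of 24 measured members 0 were past 2-fold in both plasmids in either direction, against 4.81% higher and 1.77% lower among all named genes. Their median log2 difference was -0.45, against 0 for all named genes. With quantile normalization or division by the array median 2 were lower. Nanog read 1135 and 876 in number 2, against 1263.6 and 1297 in number 1, and Sox2 read 11801 and 10730, against 11142 and 15186. Klf2, a naive-state factor, read 1835 and 1734 against 3316.3 and 3463, with number 2 below the range of 2814 to 5590 in the other lines' controls. Zfp42 (Rex1) read 13337 and 5176, against 12965 and 12291, so its number 2 arrays disagreed.

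Among the genes lower in number 2, the glycolysis and hypoxia list had 6 of 20 lower and 0 higher. Of all named genes, 1.77% were lower and 4.81% higher. The 20 include Pigq, which is not a glycolysis gene and was not parted. Ldha, which makes lactate, read 10096 and 5212 in number 2, against 24382 and 25500 in number 1. Hk2 (hexokinase) read 3365 and 2560, against 7872.4 and 6558, and Pfkl (phosphofructokinase) read 1996 and 2070, against 6286.3 and 7386. Pfkp, Tpi1 and Bnip3 were the other members. Gbx2, a homeobox gene expressed in naive ES cells, was 10.7-fold lower, at 421 and 443 against 4922.5 and 4315. Dmtn (dematin, an actin-bundling protein) read 799 and 299, against 3813.1 and 3990, and Fgf17 read 186 and 32, against 871 and 1019. Akr1b8, an aldo-keto reductase, was at least 10.6-fold lower, with -824 and -634 against 552.5 and 687. The list of large lower differences also held Mybbp1a, Tysnd1, Srpk1, Fubp1, Rbm14, Adam11, Hsd17b3, Fam102a, Myrf and Ube2l6, at 4.05- to 5.86-fold. Mybbp1a and Rbm14 were read by probe sets of a type (suffix f) whose probes may match related genes, and a second Mybbp1a probe set differed by -0.44.

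The wild-type pair with SRF-VP16 ran the other way round by number. Acta2 read 2574 in SRF-VP16 number 2 against 10591 in SRF-VP16 number 1, and Krt18 read 4549 against 11458. Bdnf read 220 against 2290, while Gbx2 read 3589 against 374 and Ldha 24714 against 10315. Of the 405 probe sets higher in number 2 of the controls, 274 (67.7%) were at least 2-fold lower in number 2 of the SRF-VP16 pair and 5 (1.23%) higher, against 21.3% lower and 3.41% higher among all probe sets kept. Of the 178 lower ones, 49 (27.5%) were at least 2-fold higher. The SRF-VP16 array numbered 2 was dimmer, with a median intensity of 103 against 167 for number 1, and the median log2 difference of all probe sets was -0.33. Its 5′ to 3′ log2 ratio of Actb was -1.408, against -0.152 for number 1, and the part of this in the result was not tested. After quantile normalization 181 (44.7%) of the 405 were lower against 9.62% of all probe sets, and 84 (47.2%) of the 178 were higher against 9.43%. Over all probe sets kept, the vector array numbered 2 correlated at 0.960 with SRF-VP16 number 1 and at 0.932 with SRF-VP16 number 2. Whether the numbers were assigned in the same way in each group is not stated in the labels, and whether samples or RNA batches were exchanged between arrays was not tested.

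Across the other arrays, no probe set was called for number. With limma on the 19 other arrays, allowing for group, 0 of 9483 probe sets differed between number 2 and number 1 after Benjamini-Hochberg adjustment, and 245 (2.58%) had an unadjusted p under 0.05. The members nevertheless parted the duplicates of other groups, in either direction. Their median log2 differences were 0.50 for the 405 and -0.83 for the 178 in E99 with SRF-VP16, but -0.34 and 0.85 in E99 with vector, and -0.68 and 0.96 in E99 with SRFdM-VP16. In the -/- lines the medians ran from -0.07 to 1.01 for the 405 and from -0.76 to -0.19 for the 178, while the medians of all probe sets ran from -0.10 to 0.36.

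**Figure D3:**
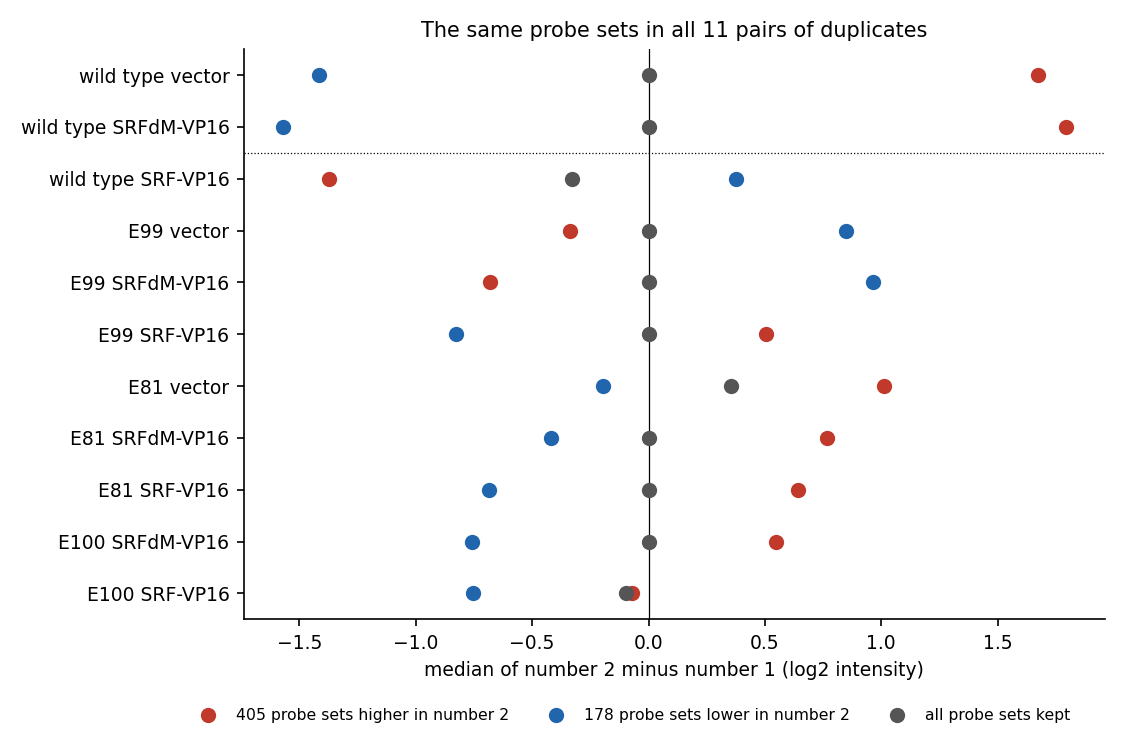
Median of number 2 minus number 1 (log2 intensity) in each of 11 pairs of duplicates for the 405 probe sets higher (red) and the 178 lower (blue) in wild-type number 2, and for all 9643 probe sets kept (grey). The 2 pairs above the dotted line chose the members; red and blue change sides in wild type with SRF-VP16 and in the E99 controls.

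Ldha split the duplicates of every group into a low and a high array. In each of the 11 pairs 1 array read between 2987 and 11361 and its partner between 22699 and 26960. With vector in E99, for example, number 2 read 25827 and number 1 read 3910, whereas with vector in E81 number 2 read 9457 and number 1 read 22699. Gbx2 split the same arrays the same way in all 11 pairs, with 79 in E81 SRFdM-VP16 number 2 against 3275 in number 1, and with 2345 in E99 SRFdM-VP16 number 2 against 148 in number 1. Ldha was picked for this description after its values were seen, so the following counts are not tests. Of the 119 other genes lower in number 2 of the wild-type controls, 38 (31.9%) went with Ldha in all 9 pairs outside those controls, against 3.16% of all named genes kept; Dmtn, Mybbp1a, Fubp1, Rbm14 and Pfkl did so by at least 2-fold each time. Of the 327 higher genes, 66 (20.2%) went opposite to Ldha in all 9 pairs, against 5.78% of all named genes, among them Tfap2c, Bdnf, Wls, Sgce, S100a13, Gpx4 and Gadd45a. For genes near background such a count is limited to the pairs in which at least 1 array exceeded the floor. Acta2 exceeded it in 4 of the 9 pairs, those with SRF-VP16, and ran opposite to Ldha in all 4, by 2-fold in 1. Among the smooth-muscle genes above the floor in all 9 pairs, Tagln ran opposite to Ldha in 8 (2-fold in 2), Csrp1 in 7 (2-fold in 3), Lpp in 7 (2-fold in 2), Fhl1 in 7 (2-fold in 1) and Tpm4 in 4 (2-fold in 3). Among keratins, Krt18 did so in 6 of 9 pairs and Krt8 in 2 of 9, while Krt19 did so in 2 of the 5 pairs where it exceeded the floor. Anxa3 did so in 8 of 9 pairs (2-fold in 5), Anxa2 in 3 of 9 and Anxa1 in 4 of 8. Igf2 did so in 2 of 4 pairs and Acta1 in 1 of 5. The cytoskeletal, keratin and annexin genes thus differed among themselves in how often they ran opposite to Ldha.

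**Figure D4:**
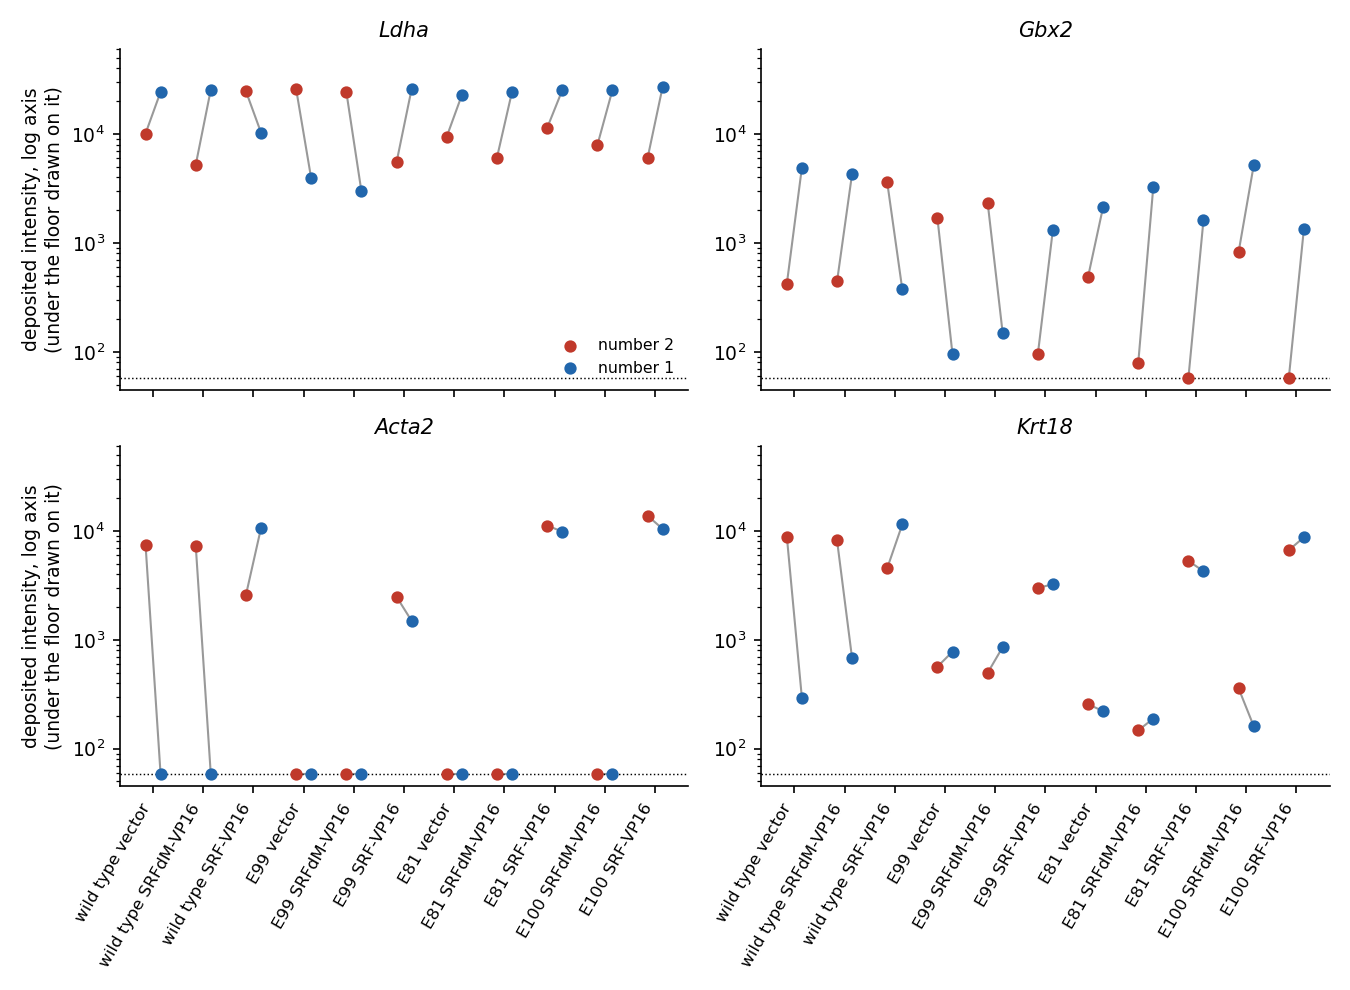
Deposited intensities (log axis) of Ldha, Gbx2, Acta2 and Krt18 in all 11 pairs of duplicates, number 2 in red left of number 1 in blue, with values under the floor drawn on it. Ldha and Gbx2 split every pair, whereas Acta2 and Krt18 part most widely in the wild-type control pairs.

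The other lines' control arrays show which number stood apart for which gene. Acta2 lay between -409 and -22 on all 11 of them, Igf2 between -1164 and -22, and Tagln between 73 and 621. Of the 405 probe sets higher in number 2, 140 (34.6%) exceeded all 11 of these arrays in both number 2 arrays, against 2.4% of all probe sets kept. For the remaining 265 (65.4%) number 2 did not lie above all 11. Tfap2c, for instance, ran from -250 to 3069 there. In 16 of the 405 (3.95%) both number 1 arrays lay below all 11, against 0.508% of all probe sets kept, and in 1 (0.247%) both lay above. The members were chosen by the values of the wild-type control arrays. Shares above those of all probe sets are therefore built in, here and for the lower members, and nothing is read from them. Of the 178 lower probe sets, 22 (12.4%) were below all 11 in both number 2 arrays (0.622% of all probe sets) and 22 (12.4%) above all 11 in both number 1 arrays (1.02%). Dmtn belonged to the last kind, with a highest value of 1363 in the other lines' controls against 3813.1 and 3990 in number 1.

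The response to SRF-VP16 was taken from the -/- lines, whose arrays had no part in choosing the members. SRF-VP16 against SRFdM-VP16 there (4 arrays against 4, limma on the 19 arrays) raised 240 of 9483 probe sets (2.53%) and lowered 29 (0.306%) at an adjusted p under 5%; quantile normalization gave 249 and 93, and division by the array median 181 and 143. The total of 269 became 488 without E81 SRFdM-VP16 number 2. Of the 405 probe sets higher in number 2 of the wild-type controls, 68 (16.8%) rose and 0 fell. This count was 45 without E81 SRFdM-VP16 number 1, which had the most values at or below 0 (43.63%) and the lowest 5′ to 3′ log2 ratios of Actb (-4.412) and Gapdh (-0.928) of the 23 arrays, and 41 without E81 SRF-VP16 number 2. Of the 178 lower ones 1 rose, a second Krt17 probe set (lower in number 2 by 2.24 on the log2 scale), and 1 fell, Mest, whose call was lost without either E100 array of either plasmid or without E81 SRF-VP16 number 2. Read from the other side, 68 (28.3%) of the 240 rises were higher in number 2, 1 (0.417%) lower and 171 (71.2%) neither.

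The genes that were both higher in number 2 and raised by SRF-VP16 included cytoskeletal and epithelial ones. Acta2 read 9860, 11179, 10432 and 13779 with SRF-VP16 in the -/- lines, against -147, -409, -191 and -56 with SRFdM-VP16, at least 193-fold higher (SE 0.39 log2 units, limma adjusted p 8.61e-07). Krt18 read 4257, 5297, 8732 and 6649 with SRF-VP16, against 189, 147, 161 and 357 with SRFdM-VP16, a rise of 4.91 (SE 0.34, adjusted p 1.21e-05). The groups did not overlap for either gene. All 5 keratins and 19 of 32 smooth muscle and actin genes rose, as did 5 of 17 annexin and S100 genes, against 2.92% of all named genes that rose and 0.327% that fell. Differences against arrays at the floor are lower bounds. Igf2 rose by at least 7.47 log2 units, Tagln by 7.61, Anxa1 by 6.61, Krt19 by 5.69, Gsn by 4.37, Ccn1 by 4.54 and Dsp by 3.39. Phldb2, Cnn1, Lpp, Ccn2, Cldn6, Itgav and Myl9 also rose, but those calls were lost under at least 1 alternative. Leaving out E81 SRF-VP16 number 2 ended the calls of Ccn2, Cnn1, Lpp, Cldn6 and Itgav, and leaving out E81 SRFdM-VP16 number 1 or E100 SRFdM-VP16 number 1 ended those of Ccn2, Cnn1, Cldn6 and Itgav. Leaving out E100 SRF-VP16 number 1 ended the same 4 calls.

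The level reached in number 2 without the activator was below that of SRF-VP16 in the -/- lines for some shared genes and close to it for others. Krt18 at 8843 and 8168 in wild-type number 2 lay inside the range of 4257 to 8732 with SRF-VP16 in -/- for 1 array and above it for the other. Acta1 at 799 and 1007 lay below the 7355 to 20188 with SRF-VP16 in -/-, and also below the 3498 and 3770 of the wild-type SRF-VP16 arrays. Tagln at 9417 and 11738 lay below 23513 to 34217. These levels come from different lines and were not tested against each other.

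Other SRF-VP16 targets were not parted by number. Igfbp6, an insulin-like growth factor binding protein and the largest rise in the -/- lines at 8.34 log2 units or more (SE 0.40, adjusted p 6.97e-07), read 72 and 40 in wild-type number 2, against 24.6 and -73 in number 1. Both wild-type SRF-VP16 arrays had it, at 1785 for number 2 and 659 for number 1. Egr1 rose by 6.11 in -/- and read 2816 and 2426 in the wild-type SRF-VP16 arrays, against 449 to 624 in control number 2 and 282.9 to 303 in control number 1. Nppb, a natriuretic peptide gene, rose by 6.11 and read 335 and 487 with SRF-VP16, against 75 and 57 in control number 2 and 86.1 and 22 in number 1. Isg15, Egr2, Actg1 and Krt17 (by its main probe set) also rose in -/- and were not past 2-fold in both wild-type pairs. In the immediate-early list 5 of 23 genes rose in -/-, and in the pluripotency list 0 rose and 3 fell: Klf2 (-2.43), Nr5a2 (-1.25) and Fgf4 (-1.15), the last not with vector as the control. Among all named genes 2.92% rose and 0.327% fell, so 1 rise in a list of 13 to 21 genes is near that share. Among the other lists, rises were called for 4 of 19 cardiac genes, 3 of 11 trophoblast genes, 3 of 22 endoderm genes, 1 of 19 mesoderm genes, 1 of 13 neurectoderm genes and 1 of 21 fibroblast or feeder cell genes. Rises were also called for 5 of 27 adhesion genes, 5 of 18 basement membrane genes, 2 of 11 genes of the insulin-like growth factor axis, 2 of 20 imprinted genes, 2 of 7 tissue factor genes, 1 of 15 interferon genes and 1 of 14 lysosome genes. Falls were called for 2 of 28 cell cycle genes, 1 imprinted gene and 1 of 16 metallothionein and oxidative stress genes, and none of the 10 housekeeping genes was called.

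The converse set was high in number 2 without a call in the -/- lines. Bdnf, 15.5-fold higher in number 2, differed by 0.17 with SRF-VP16 (SE 0.73, adjusted p 0.984). Tfap2c read 867, 1547, 724 and 1135 with SRF-VP16, against -250, 1679, -85 and 3069 with SRFdM-VP16 (adjusted p 0.738), Wls differed by 2.21 (SE 1.16, adjusted p 0.47) and S100a13 by 1.19 (SE 0.97, adjusted p 0.694). Duplicates of the same group differed in these genes, and a p that misses the threshold does not show that the groups were alike. Pmp22, peripheral myelin protein, at 23.7-fold in number 2, missed the threshold with 2.75 (SE 0.70, adjusted p 0.0652). None of the 13 p53 targets and none of the 20 glycolysis and hypoxia genes was called in either direction. Among all named genes 2.92% rose and 0.327% fell, so 0 is near that share for lists of this size. The median log2 differences were 0.74 for the p53 list and 0.25 for the glycolysis list, against 0.06 for all named genes.

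**Figure D5:**
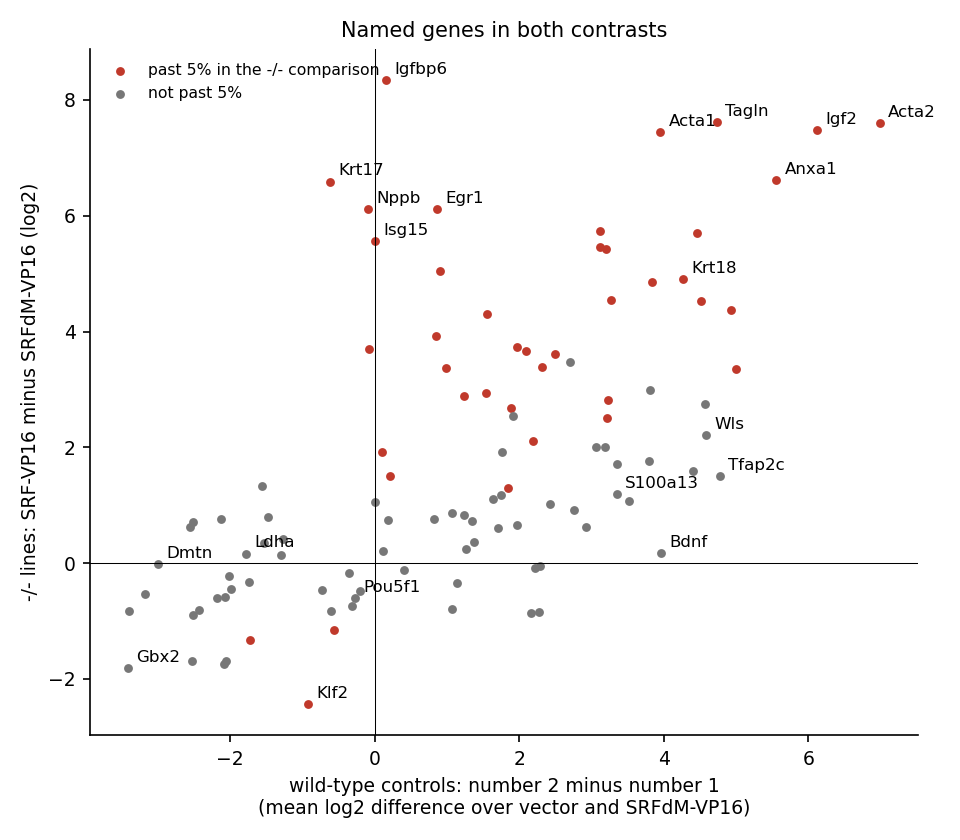
Named genes by their mean number 2 minus number 1 difference in the wild-type controls (horizontal axis, log2) and their SRF-VP16 minus SRFdM-VP16 difference in the -/- lines (vertical axis, log2), red where past an adjusted p of 5%. Acta2, Igf2 and Tagln are high on both axes, Igfbp6, Nppb and Egr1 only on the vertical one, and Bdnf only on the horizontal one.

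In E99, SRF-VP16 against SRFdM-VP16 (2 arrays against 2) gave 6 probe sets higher (0.0633%) and 2 lower (0.0211%), and 3 of the 405 were among the rises: Acta2 by 5.05 (SE 0.55), Acta1 by 3.66 (SE 0.41) and Igf2 by 6.16 (SE 0.40). The calls of Acta2 and Acta1 were lost without E99 SRFdM-VP16 number 2 (adjusted p 0.0561 each), and with all 23 arrays in the fit those of Acta2, Acta1 and Igf2 were lost (adjusted p 0.889, 0.61 and 0.51). The count of 8 was 2 without that array, 13 without SRFdM-VP16 number 1, 13 without SRF-VP16 number 1 and 17 without SRF-VP16 number 2. Control arrays of the -/- lines against those of E99 (7 against 4) differed in 9 probe sets, with 4 higher (0.0422%) and 5 lower (0.0527%). Krt18 was the 1 member among them, lower in -/- by 2.03 on the log2 scale (SE 0.30, adjusted p 0.0345), with a range of 147 to 357 in the SRFdM-VP16 arrays of -/- against 857 and 496 in those of E99. That call was lost in 8 of 18 alternatives, including without E100 vector number 2 (adjusted p 0.151), E99 SRFdM-VP16 number 1 or 2, E99 vector number 1 or E81 SRFdM-VP16 number 1, and the count of 9 was 0 without E99 SRFdM-VP16 number 2 and 46 without E99 vector number 2.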

How the data were processed

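Mouse ES cell RNA was hybridised to 1-colour arrays, and each array contributes a linear intensity for every probe set. How the authors subtracted background and scaled these values is not given in the sources used here, and 29.1% of them were at or below 0. The intensities deposited by the authors were used without further scaling. Control probe sets (66 of 12502) were left out. Probe sets had to exceed the array's own 40th percentile on 2 or more of the 23 arrays (9643 kept) or, for tests, of the 19 arrays fitted (9483 kept; all 583 members were among them). Values below the 40th percentile of all values (58) were set to it before taking log2, so folds of dim genes are understated. Symbols came from the platform annotation: 10141 probe sets had 1 symbol, 362 several and 1933 none, and 10122 symbols matched RefSeq. The probe set with the highest mean stood for a gene.

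Tests used limma (3.58.1; R 4.3.3) with a mean for each group, an intensity trend, 9 residual degrees of freedom, two-sided, and Benjamini-Hochberg adjustment over all probe sets at 5%. The 4 wild-type control arrays entered no test outside 1 alternative, and the fit was tested on simulated data. Precision is limited by the number of arrays.

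Members, gene lists and tests were chosen with earlier results of these data known. The lists are those counted in the text. All counts of the insulin-like growth factor and imprinted lists include Nckap1, and those of the glycolysis list include Pigq, which are not genes of those groups. Named are the 15 largest differences in each direction whose higher arrays were both at least 4 times the floor, up to 6 members per list, the 15 largest rises in -/-, and a set of SRF targets, keratins, annexins and lineage genes; Ldha as a reference for the other pairs was chosen after its values were seen.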

Additional observations from a re-analysis of the deposited data

Results flagged for a closer look

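In wild-type cells, 21 of the genes named for their size had a number 2 minus number 1 difference of at least 1 log2 unit with SRF-VP16 that was opposite in sign to both control pairs. The values below are SRF-VP16 number 2 minus SRF-VP16 number 1 in log2 intensity. Those higher in number 2 of the controls and lower in number 2 with SRF-VP16 were Acta2 (-2.04), Phldb2 (-2.52), Gsn (-2.17), Tfap2c (-1.31), Tagln (-1.48), Wls (-2.52), Pmp22 (-2.85), Sgce (-2.31), Krt18 (-1.33), Bdnf (-3.38), F3 (-2.10) and Csrp1 (-1.40). Those lower in number 2 of the controls and higher in number 2 with SRF-VP16 were Myrf (3.37), Rbm14 (2.02), Fubp1 (1.76), Srpk1 (2.89), Tysnd1 (2.35), Mybbp1a (3.95), Dmtn (2.996), Fgf17 (1.07) and Gbx2 (3.26). Each value rests on 1 array against 1, and the difference between the pairs was not tested.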

How the results depend on the processing

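The parted genes are a description of 4 arrays with no replicate of either number within a plasmid, and low intensities limit every fold near the floor. No named difference changed sign under an alternative; in wild type 403 recomputed differences of named genes moved by less than the spread between plasmids and 83 by more. The counts of 405 higher and 178 lower became 182 and 86 with the floor at the 60th percentile (301), 94 and 13 at 4-fold, 917 and 675 in the vector pair alone, and 1226 and 949 in the SRFdM-VP16 pair alone, since 1 pair sets a weaker condition; 307 were lower after division by the array median, which moved the median of all named genes by -0.19 on the log2 scale. In the -/- lines the count of 269 ran from 185 to 488 when 1 array was left out, and 633 recomputed calls of named genes held while 64, in 11 genes, were lost; S100a6 held in 7 and Itgav in 3 of 17 alternatives. The E99 count of 8 was 4 with the higher floor, 4 with all 23 arrays in the fit, and 2 to 17 when 1 array was left out. The -/- against E99 count of 9 was 4 after division by the median, 69 with the higher floor, 120 with no filter, 0 with E81 alone, 89 with E100 alone, and 0 to 46 when 1 array was left out. The number term on the 19 arrays gave 0 in every alternative. Number differences ran oppositely in some groups, so a term shared by all groups is poorly placed to find them. Nothing is read from this 0. Other causes of these changes were not tested.

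Replicate numbers come from the sample titles. Differences between numbers correlated at 0.21 to 0.31 among the -/- groups, at 0.32 between the E99 control groups and at 0.42 between the wild-type control groups, but at -0.33 and -0.35 between E99 with SRF-VP16 and its controls, and at -0.26 and -0.33 between wild type with SRF-VP16 and its controls. Same-numbered arrays deviated together within some groups and oppositely within others, so the number was not treated as a pairing across the series. With the number as a replicate block the -/- count was 245 against 269, the E99 count 6 against 8, and the -/- against E99 count 4 against 9, and of the 405 probe sets 65 rose against 68. The block ended the calls of Itgav in -/- (adjusted p 0.0619) and of Krt18 in -/- against E99 (adjusted p 0.0661).

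Some alternatives were chosen after seeing the data. The 68 probe sets that rose were 41 to 87 when 1 array was left out. The 274 that were at least 2-fold lower in wild-type SRF-VP16 number 2 became 181 with quantile normalization, 166 with division by the median and 168 with the higher floor, and the 49 that were higher became 84 with quantile normalization, 93 with division by the median and 33 with the higher floor.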
